A study of Homo sapiens with 15 samples.

Results

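The genes described here are 9 components and regulators of the complement system, picked by name and matched to the deposited tables by gene symbol: the classical-pathway proteases C1R and C1S, the central component C3 and the alternative-pathway protease CFB, the soluble regulators SERPING1 and CFI, and the membrane regulators CD46, CD55 and CD59. All 9 were found among the 60721 genes of the table, and all 9 passed the filter on low counts that left 17457 genes for testing. The cells were MCF-10A, an immortalised, non-tumorigenic line from human breast epithelium. The 5 genotypes were sequenced as poly(A) RNA in 3 libraries each: unmodified cells (Parental), cells given an empty vector (EV), and cells whose NF1 gene was targeted with guide RNA 1 (NF1-g1), guide RNA 2 (NF1-g2) or both guides (NF1-g1/g2). No group was treated, and all were grown in the same serum medium with EGF, hydrocortisone, cholera toxin and insulin. The labels call the libraries of a genotype biological replicates, without giving separate culture dates, and do not say whether an edited line was a clone or a pool. The p-values therefore measure only the spread between these libraries.

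Complement is a cascade of plasma and surface proteins that coats targets with fragments of C3 and can end in a membrane pore. The liver makes most of the circulating proteins, but epithelial cells make some of them locally and raise several under interferon and inflammatory cytokines. Cells protect themselves with membrane regulators that break up or cleave the C3-activating enzymes or block the pore. NF1 encodes neurofibromin, a negative regulator of RAS.

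NF1 itself was at 115 to 133 CPM (counts relative to the library total, scaled to 1e6) in the EV libraries and 141 to 159 CPM in Parental. It was at 43.6 to 51.3 CPM in NF1-g1, 27.0 to 31.4 CPM in NF1-g2 and 26.0 to 29.4 CPM in NF1-g1/g2, so its level went with the labels in every library. Library totals ran from 46129559 to 78976917 counts, and 3 counts, the smallest level taken as detected, equal 0.038 to 0.065 CPM. NF1-g2 replicate 2 stood apart: it held 9319 CPM summed over 9 markers of mammary basal epithelium, against 1290 and 1364 CPM in the other NF1-g2 libraries, and 25.5% of all tested genes had their lowest CPM of the 15 libraries there. The Parental libraries were uneven in the same sum, at 5271, 1560 and 3132 CPM in replicates 1, 2 and 3. The epithelial marker CDH1 was at 0.158 CPM or less in all 3 NF1-g1 libraries and at 0.0361 and 0.0434 CPM in NF1-g2 replicates 1 and 3. It was at 14.8 to 23.4 CPM in NF1-g1/g2, 1.79 to 42.9 CPM in Parental and 44.1 to 127 CPM in EV. KRT5 was at 625 CPM or more in every library. Values below are in replicate order 1, 2, 3 within a genotype. In bulk RNA, fewer cells expressing a gene and less RNA per cell cannot be told apart.

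The clearest differences among the 9 genes were between the EV cells and the rest. C1R and C1S were lower in NF1-g1 than in EV and CD55 was higher, which makes 3 of 9 genes called at an adjusted p under 0.05 (edgeR quasi-likelihood test, Benjamini-Hochberg over all tested genes). In the same comparison 5.88% of all tested genes were called, 4.57% lower and 1.31% higher, and DESeq2 called the same 3 members and 9.44% of its genes. With the replicate number as a block, none of the 9 was called (3.25% of all genes). Same-numbered NF1-g1 and EV libraries deviated alike (r 0.136 to 0.28), which speaks for a block in this comparison. The block was shared by all 5 genotypes, however, and no other pair of genotypes showed such likeness in every pair of libraries. C1R was also lower in NF1-g2, the only call among the 9 there, against 3.94% of all genes (2.73% lower); DESeq2 called C1R, C1S and CD55 (6.7% of its genes). EdgeR called no member in NF1-g1/g2 against EV, where 0.962% of all genes were called; 3 members and 14% of all genes were at an unadjusted p under 0.05, and DESeq2 called C1R and C1S (3.73%). The unedited Parental cells also had lower C1R and C1S than EV, with 2 of 9 genes called against a background of 4.37% (2.84% lower). CD55 was not called in Parental (0.44, edgeR adjusted p 0.242). DESeq2 called C3 and CFI there as well (8.95%). These comparisons use the same 3 EV libraries, so they are not independent of each other.

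Against Parental, edgeR called none of the 9 genes in NF1-g1 (0.149% of all genes called), NF1-g2 (0.0516%) or NF1-g1/g2 (0.195%). Unadjusted p values under 0.05 were found for 4, 2 and 2 of the 9, and for 19.9%, 7.37% and 9.98% of all tested genes. DESeq2 called C3 in NF1-g1 (3.61% of its genes), no member in NF1-g2 (0.63%) and CFI in NF1-g1/g2 (1.77%). Among the edited lines, none was called for NF1-g1 against NF1-g2 (0.0401%), for NF1-g1/g2 against NF1-g1 (0.275%) or for NF1-g1/g2 against NF1-g2 (0.149%), with 1 of 9 at an unadjusted p under 0.05 in each (15.2%, 13% and 5.80% of all genes) and none by DESeq2 (0.973%, 1.87% and 0.758%). Averaging the edited lines and setting them against the average of both controls gave no call by edgeR (1.51% of all genes), with 4 at an unadjusted p under 0.05 (15.8% of all genes) and CD55 called by DESeq2 (4.24%). A test of any difference among the 5 genotypes also called none of the 9 by edgeR (4.3% of all genes), with 6 at an unadjusted p under 0.05 (22.1% of all genes) and 5 called by DESeq2 (12.5%).

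The members' estimates went in both directions. Their median log2 fold change against EV was -0.22 in NF1-g1, -0.21 in NF1-g2, -0.14 in NF1-g1/g2 and -0.66 in Parental, beside 0.02, 0.03, 0.00 and 0.01 over all tested genes. Against Parental the medians were 0.35, 0.40 and 0.29 in the same order of edited lines, beside 0.00, 0.02 and -0.02 over all tested genes. Of the 9 members, 6, 7 and 6 had a lower estimate than EV in the edited lines, and 7, 8 and 9 had a higher one than Parental. Some of these were near 0, such as CD46 at 0.01, CD55 at 0.04 and C1R at 0.07 in NF1-g1/g2 against Parental. The edited lines share the libraries of each control, and the share of all genes in each direction is not given here.

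**Figure D1:**
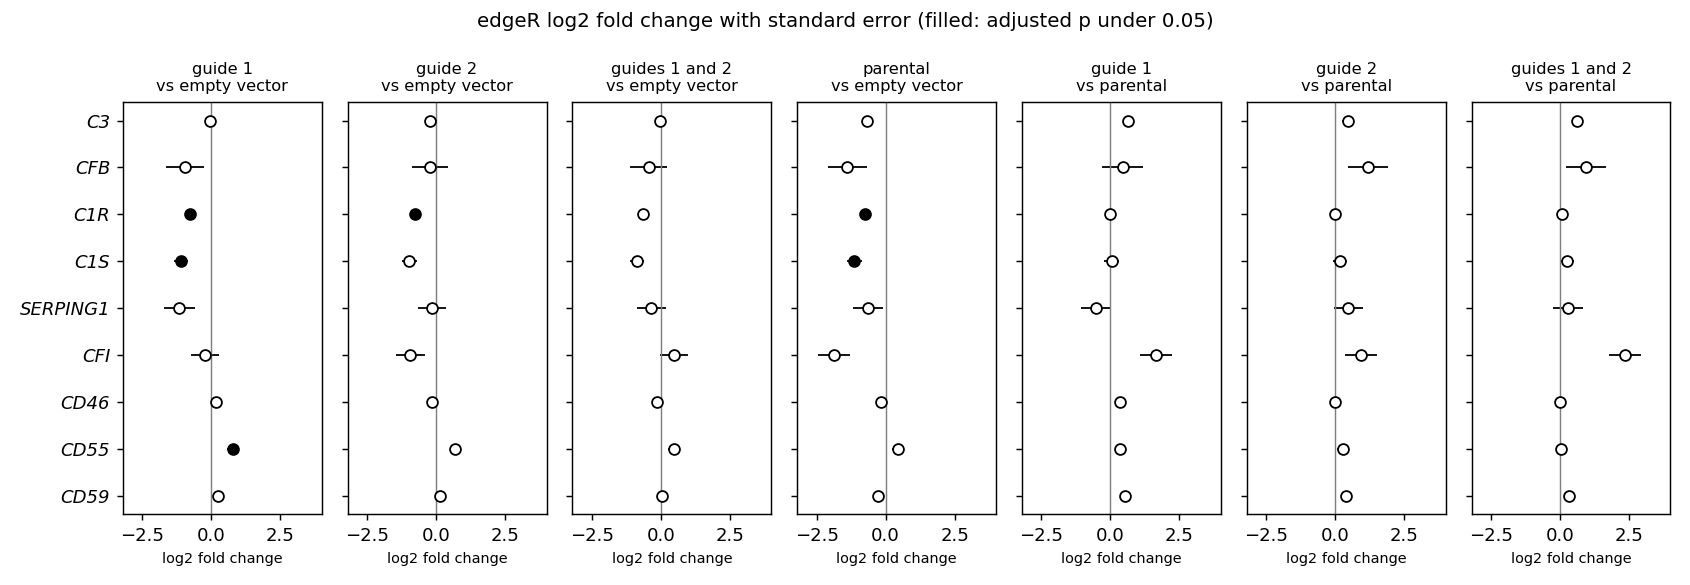
Log2 fold change (x axis) of each of the 9 genes (y axis) for the comparisons against the empty vector and against Parental, with the standard error as the bar and filled points where the adjusted p was under 0.05. C1R and C1S lie to the left of 0 in every comparison with the empty vector, and their estimates against Parental lie between -0.03 and 0.26.

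C1R encodes the protease that activates C1s inside the C1 complex of the classical pathway (ENSG00000159403, chr12:7080199-7092607, minus strand, GENCODE 29 on GRCh38). The library levels of C1R were 7.53, 8.02 and 7.01 CPM in EV and 3.70, 6.06 and 4.09 CPM in Parental. The edited lines held 4.02, 4.52 and 4.83 CPM of C1R with guide 1, 4.39, 3.82 and 5.33 CPM with guide 2, and 5.12, 4.94 and 4.42 CPM with both guides. Every EV library was above all 12 other libraries, and the other 4 genotypes overlapped each other throughout. The group means were 7.52 ± 0.504 CPM in EV, 4.62 ± 1.27 in Parental, 4.46 ± 0.407 in NF1-g1, 4.52 ± 0.762 in NF1-g2 and 4.82 ± 0.364 in NF1-g1/g2 (SD, n = 3 each).

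The log2 fold change of C1R from EV was -0.76 (SE 0.183) in NF1-g1, with an adjusted p of 0.0296. It was -0.75 (SE 0.183, adjusted p 0.0395) in NF1-g2 and -0.73 (SE 0.183, adjusted p 0.041) in Parental. In NF1-g1/g2 the estimate was -0.66 (SE 0.183), and the adjusted p of 0.107 missed the threshold. Against Parental the 3 edited lines gave C1R estimates of -0.03, -0.01 and 0.07, with standard errors of 0.182 to 0.183. With the replicate number as a block shared by all genotypes, the NF1-g1 estimate for C1R was -0.77 and its adjusted p 0.0578, and no member was called (3.25% of all genes). The NF1-g1 call was also lost without NF1-g1 replicate 1 or 2 or without any single EV library, at adjusted p values of 0.0697 to 0.121 and estimates of -0.81 to -0.71. The NF1-g2 call of C1R was lost without NF1-g2 replicate 1 or any EV library (adjusted p 0.101 to 0.117), and the Parental call without Parental replicate 1 or 3 or any EV library (0.103 to 0.146). These NF1-g2 and Parental calls of C1R were also lost without the filter (0.0735 and 0.0779), with the block (0.0741 and 0.0705) and with only the compared groups in the fit (0.163 and 0.0724).

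The set of RefSeq promoters (GRCh38.p14) used here held 6 of the 9 genes, with 11 start sites in all, and C1R has a pair of them. The set had no entry for C3, C1S or SERPING1, so these were not searched. The 250 bases before the downstream start of C1R, minus strand, chr12:7091894-7092143, are shown because C1R was called in more comparisons than any other member. Of the C1R windows, only this one held the match marked in it. Capitals mark a match to the gamma-interferon-activated site (GAS) TTCNNNGAA. The window lies inside the C1R gene and overlaps 1 GENCODE exon.
C1R: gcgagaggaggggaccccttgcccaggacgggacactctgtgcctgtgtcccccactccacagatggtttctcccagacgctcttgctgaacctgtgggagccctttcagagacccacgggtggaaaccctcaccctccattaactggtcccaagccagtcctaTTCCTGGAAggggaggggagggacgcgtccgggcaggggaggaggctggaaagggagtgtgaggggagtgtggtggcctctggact

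The match in C1R spans bases -86 to -78 from that start, where -1 is the last base before it, and the window before the upstream C1R start held none. Of the 6 genes, CFB and CD59 also had a match to the same letters, CFB at -92 to -84 and CD59 at -128 to -120, and these 27-base windows set them side by side with C1R, again with the GAS letters in capitals. They lie at chr12:7091962-7091988 (minus strand), chr6:31945994-31946020 (plus strand) and chr11:33736590-33736616 (minus strand).
C1R: ccagtcctaTTCCTGGAAggggagggg
CFB: gcttggatgTTCCGGGAAagtgatgtg
CD59: cacccggccTTCTCAGAAcctgggcca
GAS letters occurred in 6.57% of 35116 RefSeq promoter windows of the same length. CFB also matched the interferon-stimulated response element core, GAAA and GAAA with any 2 bases between them, at -140 to -131 (3.02% of windows) and the NF-kB consensus at -112 to -103 (9.96%). Another start of CD59 matched the AP-1 site TGANTCA at -117 to -111 and at -23 to -17 (6.57%). Both strands were searched, CFB's 3 matches did not overlap, and no match to these 4 motifs was found for CD46, CD55 or CFI. A match describes these letters and is not evidence of binding. Of the 3 genes with GAS letters, C1R was called against EV with all 15 libraries, and CFB and CD59 were not. The absence of a call does not show that CFB differed from C1R. CFB had at most 24 counts a library, and its estimates against EV were -0.94 (SE 0.688) in NF1-g1 and -1.38 (SE 0.72) in Parental. A part of these letters in any difference was not tested.

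C1S encodes the protease that C1r activates and that cleaves C4 and C2 (ENSG00000182326, chr12:6988259-7071032, plus strand), and it lies next to C1R on chromosome 12. The library levels of C1S were 6.15, 7.58 and 6.55 CPM in EV and 2.98, 3.73 and 2.73 CPM in Parental. The edited lines held 2.7, 3.60 and 3.29 CPM of C1S with guide 1, 3.18, 2.16 and 5.16 CPM with guide 2, and 4.4, 3.55 and 3.34 CPM with both guides. As for C1R, the 3 EV libraries were the highest of the 15, and NF1-g2 replicate 3 came next. The means were 6.76 ± 0.739 CPM in EV, 3.15 ± 0.520 in Parental, 3.20 ± 0.456 in NF1-g1, 3.5 ± 1.53 in NF1-g2 and 3.76 ± 0.561 in NF1-g1/g2 (SD, n = 3 each).

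Against EV the log2 fold change of C1S was -1.09 (SE 0.263, adjusted p 0.0308) in NF1-g1 and -1.13 (SE 0.264, adjusted p 0.0312) in Parental. It was -0.96 (SE 0.262, adjusted p 0.0621) in NF1-g2 and -0.87 (SE 0.262, adjusted p 0.141) in NF1-g1/g2, neither of which passed. Against Parental the C1S estimates were 0.04, 0.17 and 0.26 in NF1-g1, NF1-g2 and NF1-g1/g2, with standard errors of 0.262 to 0.263. The blocked NF1-g1 estimate for C1S was -1.09, with an adjusted p of 0.0655. Leaving out any single library of NF1-g1 or EV ended the NF1-g1 call (adjusted p 0.0545 to 0.126), and any single library of Parental or EV ended the Parental call (0.0693 to 0.111).

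C1R and C1S were the only members with every EV library above the other 12 libraries, 2 of 9 where 4.3% of all tested genes showed that order, and none of the 9 had every EV library below the rest (2.4% of all genes). Over the 15 libraries the log2 CPM of C1R and C1S had a Pearson r of 0.932 and a Spearman rho of 0.939, the highest r of either gene with any of 11616 genes compared. The EV libraries form a cluster of their own in this pair, and r was 0.784 over the 12 others. The next most alike genes for both were ZNF592, at 0.912 with C1R and 0.892 with C1S, and the HLA class I gene HLA-C, at 0.902 and 0.926. These are descriptions over points that share library and depth. In the annotation C1R shares 11.4% of its exon bases with its neighbour C1RL (mean 24.0 CPM) and C1S shares 3.5% with EMG1 (61.1 CPM), so part of their counts depends on a counting rule that is not given in the sources used here.

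**Figure D2:**
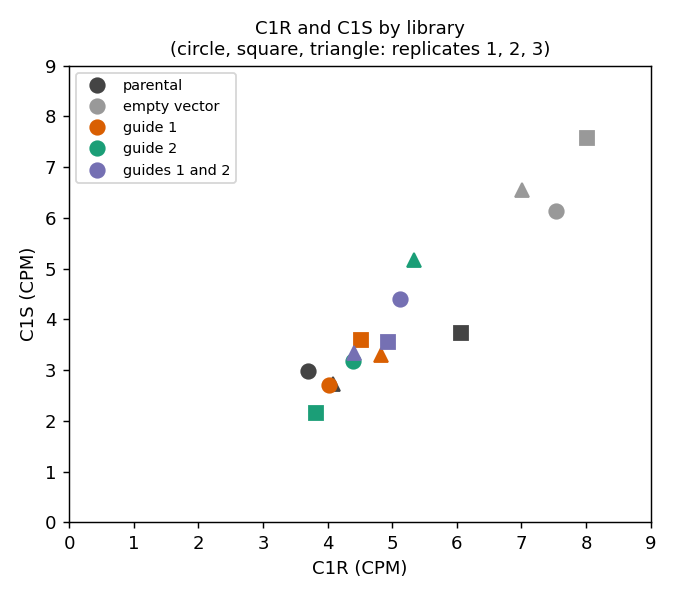
CPM of C1S (y axis) against CPM of C1R (x axis), 1 point per library, coloured by genotype, with the replicate shown by shape. The empty-vector libraries lie apart at the upper right, at 7.01 to 8.02 CPM of C1R and 6.15 to 7.58 CPM of C1S.

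Transcripts known to raise complement genes, or to mark other cells, were read in the same libraries. IL1B, an inflammatory cytokine, was at 35.9, 32.6 and 75.1 CPM in EV and between 1.03 and 10.2 CPM in the other 12 libraries. It was called lower than EV in all 4 other genotypes, at log2 fold changes of -4.77 in NF1-g1 (adjusted p 0.00668), -3.47 in NF1-g2 (0.0232), -3.96 in NF1-g1/g2 (0.0305) and -3.92 in Parental (0.0153). The interferons IFNB1 and IFNG had no count in any library. IFNGR1, a chain of the interferon-gamma receptor, was lower in NF1-g2 than in EV at -0.59 (SE 0.149, adjusted p 0.0457), and no other of the 16 listed inducers and factors was called in any comparison with EV. The summed level of 5 myeloid markers was 13.04 to 16.04 CPM in EV and 5.98 to 12.99 CPM in the rest. Nearly all of it was CD14 and CSF1R, with PTPRC at 0.0542 CPM or less and LYZ at 0.0434 CPM or less everywhere. CSF1R was at 6.64 to 11.5 CPM in EV and at most 6.41 CPM in the rest, and the CD14 levels of EV overlapped with the others. The 9 basal epithelial markers summed to 3622 to 5492 CPM in EV, 1560 to 5271 in Parental, 1140 to 1479 in NF1-g1, 1290 to 9319 in NF1-g2 and 1863 to 2113 in NF1-g1/g2. The fibroblast or mesenchymal markers summed to 171 to 221 CPM in EV, 168 to 236 in Parental, 531 to 1180 in NF1-g1, 79.7 to 484 in NF1-g2 and 317 to 343 in NF1-g1/g2. Both sums set EV apart from NF1-g1 and NF1-g1/g2, and not from Parental or NF1-g2. Most of the difference in the mesenchymal sum was DCN, at a mean of 113 CPM in EV, 831 in NF1-g1, 261 in NF1-g2 and 241 in NF1-g1/g2. COL1A1 went the other way, at 15.3 CPM in EV and 5.07, 4.65 and 4.45 CPM in the same lines. Mean CDH2 was 74.4 CPM in EV and 84.4, 59.7 and 84.9 CPM in these lines. PDGFRB was at 3.62 CPM or less and COL3A1 at 0.0553 CPM or less everywhere. The part of IL1B and of the marker levels in the C1R and C1S differences was not tested.

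C3 encodes the protein whose cleavage is the central step of all complement pathways (ENSG00000125730, chr19:6677704-6730562, minus strand). It was the most abundant of the 9, at a mean of 702 CPM over the 15 libraries. The libraries held 722, 812 and 811 CPM in EV, 605, 518 and 391 CPM in Parental, 717, 918 and 672 CPM in NF1-g1, 669, 523 and 852 CPM in NF1-g2, and 794, 780 and 741 CPM in NF1-g1/g2. All Parental libraries were below all EV, NF1-g1 and NF1-g1/g2 libraries, but they overlapped with NF1-g2 replicate 2. The means were 505 ± 108 CPM in Parental and 782 ± 52.1 in EV, with 769 ± 131, 681 ± 165 and 772 ± 27.3 in NF1-g1, NF1-g2 and NF1-g1/g2 (SD, n = 3 each).

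The C3 difference between Parental and EV was -0.66 (SE 0.187) on the log2 scale, with an adjusted p of 0.0637 in edgeR and 0.0134 in DESeq2. Against Parental, C3 gave 0.63 (SE 0.187, adjusted p 0.166) in NF1-g1, 0.45 (SE 0.187, 0.601) in NF1-g2 and 0.62 (SE 0.187, 0.221) in NF1-g1/g2. Against EV the 3 edited lines lay at -0.03, -0.21 and -0.04, with standard errors of 0.186.

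CFB encodes factor B, the protease of the alternative-pathway C3 convertase (ENSG00000243649, chr6:31945650-31952084, plus strand). Its reads were few: 15, 8 and 23 counts in EV, 4, 15 and 0 in Parental, 11, 12 and 5 in NF1-g1, 12, 9 and 24 in NF1-g2, and 10, 15 and 8 in NF1-g1/g2. That is at most 0.429 CPM, and the 0 in Parental replicate 3 allows up to 0.065 CPM. Every genotype overlapped the next in the order of means, and the estimates ran from -1.38 (SE 0.72) for Parental against EV to 1.18 (SE 0.721) for NF1-g2 against Parental, none called. Of the CFB exon bases, 45.0% are also annotated to a readthrough transcript (AL645922.1) that had no count in any library.

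SERPING1 encodes the C1 inhibitor, which inactivates C1r and C1s (ENSG00000149131, chr11:57597387-57614853, plus strand). It was at 0.525, 0.479 and 0.392 CPM in EV, 0.175, 0.517 and 0.217 CPM in Parental, 0.230, 0.241 and 0.158 CPM in NF1-g1, 0.542, 0.0906 and 0.622 CPM in NF1-g2, and 0.369, 0.374 and 0.375 CPM in NF1-g1/g2. These values rest on 5 to 43 counts a library. All NF1-g1 libraries were below all EV libraries, and NF1-g2 held both the lowest and the highest of the 15. SERPING1 in NF1-g1 against EV gave -1.15 (SE 0.546, adjusted p 0.247).

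CFI encodes factor I, the protease that inactivates C3b and C4b with the help of cofactors (ENSG00000205403, chr4:109740694-109802179, minus strand). It was at 0.525, 0.645 and 0.429 CPM in EV, 0.0702, 0.219 and 0.152 CPM in Parental, 0.268, 0.595 and 0.506 CPM in NF1-g1, 0.181, 0.0906 and 0.549 CPM in NF1-g2, and 0.650, 0.963 and 0.661 CPM in NF1-g1/g2, from 4 to 54 counts. The 3 Parental libraries were below all EV, NF1-g1 and NF1-g1/g2 libraries, and NF1-g1/g2 held the highest 3 of the 15. CFI in NF1-g1/g2 against Parental gave the largest estimate of any member, 2.35 (SE 0.568), at an edgeR adjusted p of 0.119 and a DESeq2 adjusted p of 0.00683. Parental against EV gave -1.86 (SE 0.573, adjusted p 0.0862) in edgeR and 0.0218 in DESeq2. The predicted gene AC126283.2, with no count in any library, shares 32.0% of the CFI exon bases.

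CD55 encodes decay-accelerating factor, which takes C3 convertases apart on the cell surface (ENSG00000196352, chr1:207321376-207386804, plus strand). It was at 129, 123 and 86.9 CPM in EV, 131, 191 and 147 CPM in Parental, 205, 204 and 177 CPM in NF1-g1, 205, 128 and 222 CPM in NF1-g2, and 155, 162 and 159 CPM in NF1-g1/g2. The EV libraries were below all Parental, NF1-g1 and NF1-g1/g2 libraries, and NF1-g2 replicate 2 fell within the EV range while the other NF1-g2 libraries did not. The means were 113 ± 22.8 CPM in EV, 156 ± 31.1 in Parental, 195 ± 15.5 in NF1-g1, 185 ± 50.0 in NF1-g2 and 159 ± 3.36 in NF1-g1/g2 (SD, n = 3 each).

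The log2 fold change of CD55 in NF1-g1 against EV was 0.78 (SE 0.198), with an adjusted p of 0.0375 in edgeR. The estimates were 0.70 (SE 0.198, adjusted p 0.0682) in NF1-g2, 0.47 (SE 0.198, 0.3) in NF1-g1/g2 and 0.44 (SE 0.198, 0.242) in Parental. Against Parental they were 0.35, 0.27 and 0.04 in NF1-g1, NF1-g2 and NF1-g1/g2, with standard errors of 0.197 and no call. The blocked NF1-g1 estimate for CD55 was 0.79, with an adjusted p of 0.0744. The call was also lost without NF1-g1 replicate 1 or 2 or any single EV library (adjusted p 0.0596 to 0.187), and without EV replicate 3, the lowest of the EV libraries, the estimate was 0.62.

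CD46 encodes membrane cofactor protein, the cofactor with which factor I cleaves C3b on host cells (ENSG00000117335, chr1:207752057-207795513, plus strand). It varied least, 1.59-fold between the lowest and the highest library. It was at 449, 436 and 428 CPM in EV, 363, 429 and 416 CPM in Parental, 526, 520 and 464 CPM in NF1-g1, 419, 331 and 447 CPM in NF1-g2, and 414, 421 and 375 CPM in NF1-g1/g2. The 3 NF1-g1 libraries were the highest of the 15, and NF1-g2 replicate 2 was the lowest. CD46 in NF1-g1 gave 0.19 (SE 0.108, adjusted p 0.332) against EV, 0.34 (SE 0.108, 0.175) against Parental and 0.34 (SE 0.108, 0.317) against NF1-g2.

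CD59 encodes protectin, which stops assembly of the membrane attack complex (ENSG00000085063, chr11:33703010-33736491, minus strand). It was at 454, 443 and 532 CPM in EV, 361, 439 and 410 CPM in Parental, 590, 572 and 541 CPM in NF1-g1, 589, 369 and 615 CPM in NF1-g2, and 498, 508 and 506 CPM in NF1-g1/g2. NF1-g1 lay above both controls, NF1-g1/g2 lay within the EV range, and Parental lay below EV with its highest library just under the lowest EV library. CD59 in NF1-g1 gave 0.24 (SE 0.158, adjusted p 0.409) against EV and 0.52 (SE 0.159, 0.171) against Parental.

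**Figure D3:**
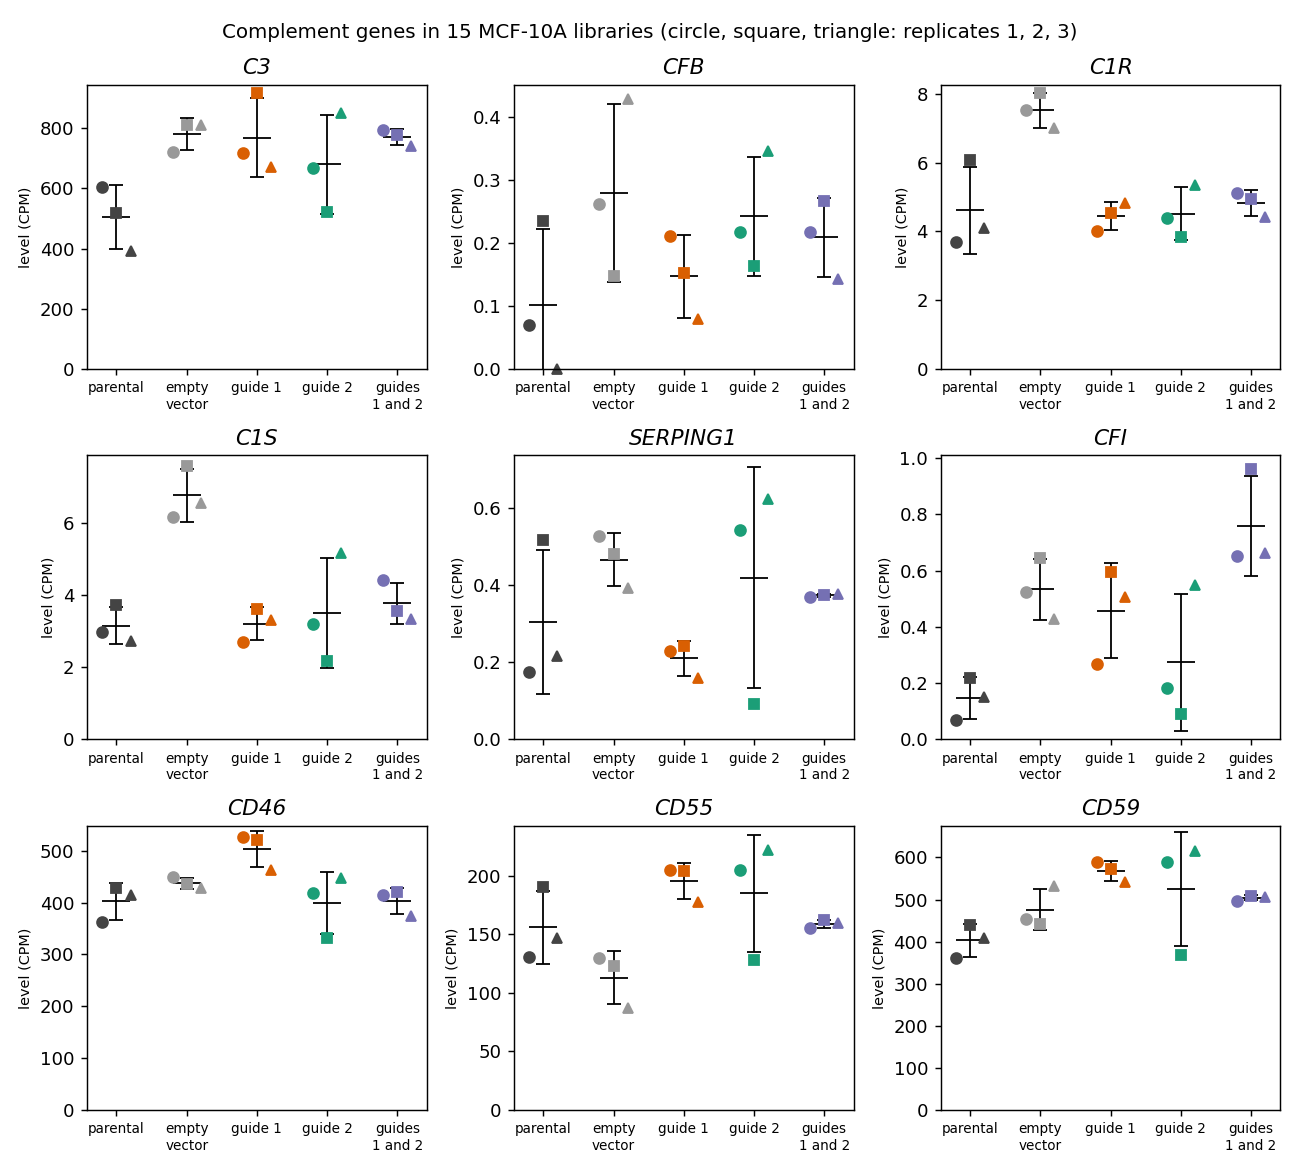
CPM of each of the 9 genes (1 panel per gene, y axes from 0) in the 5 genotypes (x axis), with 1 point per library, the replicate shown by shape, and the group mean and SD as a horizontal mark with whiskers. The C1R and C1S points of the empty vector stand above all others, at 7.01 CPM or more and 6.15 CPM or more, and the CFB, CFI and SERPING1 panels reach no more than 0.963 CPM.

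Per kilobase of exon, the 9 genes fell into 3 tiers. C3 averaged 84.3 CPM per kilobase, CD46 49.3, CD59 47.8 and CD55 27.4. C1R and C1S were far lower, at 0.881 and 0.630 CPM per kilobase. SERPING1 at 0.0982, CFI at 0.0890 and CFB at 0.0392 CPM per kilobase made up the lowest tier. Of these 9, C3 and the membrane regulators were the abundant transcripts, and SERPING1, CFI and CFB were scarce. The exon lengths of CFB and CFI include bases also annotated to other genes, 45.0% and 32.0% of them. Their levels therefore depend in part on the counting rule, which is not given in the sources used here.

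**Figure D4:**
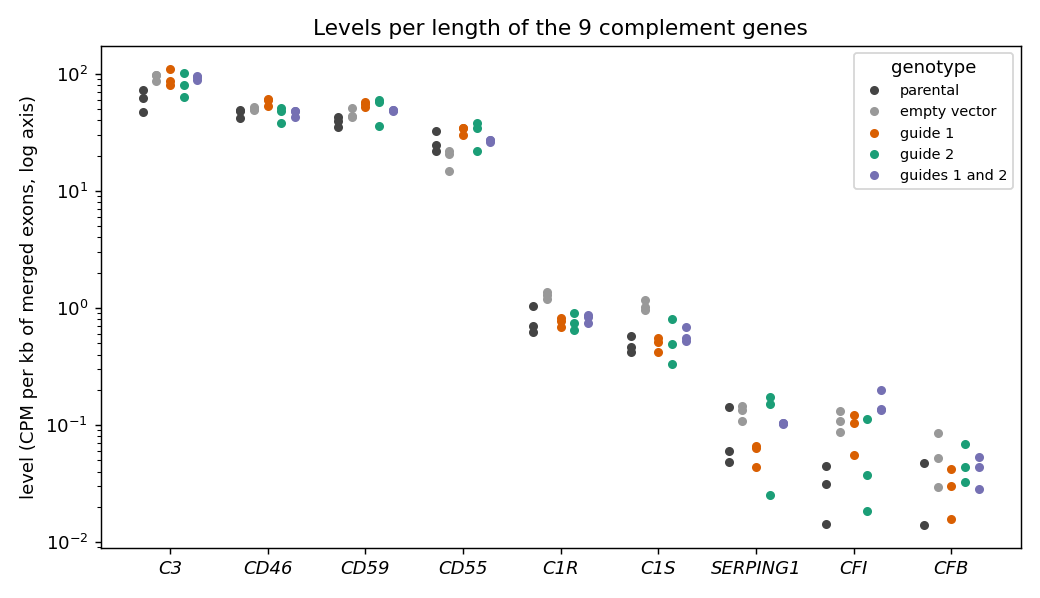
CPM per kilobase of merged exon (y axis, log scale) of the 9 genes (x axis) in the 15 libraries, 1 point per library, coloured by genotype. The genes form 3 tiers, led by C3 at a mean of 84.3; the CFB value of Parental replicate 3 is 0 and cannot be drawn on a log axis.

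The most alike genes of the surface regulators over the 15 libraries were IRS1 for CD55 (Pearson r 0.971), WDR11 for CD46 (0.966) and IGFBP2 for CD59 (0.942). For C3 it was HSD17B1 (0.86). For the 3 genes of the lowest tier the highest values were 0.896 for SERPING1 with AKIRIN2, 0.868 for CFI with INPP1 and 0.832 for CFB with LCMT1. Among the members themselves, CD46 and CD59 had an r of 0.726, C3 and CFI 0.735, and CD55 had r values of -0.378 with C1R and -0.356 with C1S. Those of CD55 had the opposite sign over the 12 libraries without EV, at 0.542 and 0.549.

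Of 43 other complement genes, 14 passed the filter and 13 had no count in any library. The genes without a count included C1QA, C1QB and C1QC, the 3 chains of C1q with which C1r and C1s form the C1 complex, the lectin-pathway sensors MBL2, FCN1, FCN2 and FCN3, and the pore proteins C8A, C8B and C9. None of the 14 was called by edgeR in any of the 12 comparisons. Those with an unadjusted p under 0.05 numbered 4 in NF1-g1, 2 in NF1-g2, 0 in NF1-g1/g2 and 1 in Parental, each against EV, beside 21.4%, 18.9%, 14% and 19.8% of all genes. DESeq2 called CFD and CLU in NF1-g2 against EV (6.7% of its genes) and no other of them. With only the compared groups in the edgeR fit, C5 and CLU were called in NF1-g1 against EV, at 0.81 to 0.85, and C5 in NF1-g1/g2 against EV, at 0.53. CFD was called in NF1-g2 against EV without EV replicate 2, at 1.76. The fits with only the compared groups tested 10 of the listed genes, and the fit without EV replicate 2 tested 16. The share of all genes called in these fits is not given here, so these calls have no background beside them. The listed genes with a mean of 5 CPM or more were C1QBP (260 CPM), ITGB2 (55.7), C1RL (24.0), CLU (11.9), C5 (11.5) and C5AR2 (5.91). The near-copies C4A and C4B can share reads, so their counts are uncertain.

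NF1-g2 replicate 2 had the lowest value of the 3 NF1-g2 libraries for all 9 members, as it did for 44.1% of all tested genes. It was the lowest of all 15 libraries for C1S, SERPING1 and CD46, 3 of 9 members, beside 25.5% of all genes. Relative to the mean of replicates 1 and 3, its level was 78.7% for C1R, 76.5% for CD46, 68.8% for C3, 61.2% for CD59, 60.0% for CD55, 57.9% for CFB, 51.7% for C1S, 24.8% for CFI and 15.6% for SERPING1. Of the 6 other complement genes at 5 CPM or more, 5 were lowest there among the NF1-g2 libraries, with ITGB2, a chain of the complement receptor integrins, at 13.4 CPM against 72.2 and 73.4 CPM, and C1QBP was the exception at 339 CPM against 228 and 235 CPM.

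**Figure D5:**
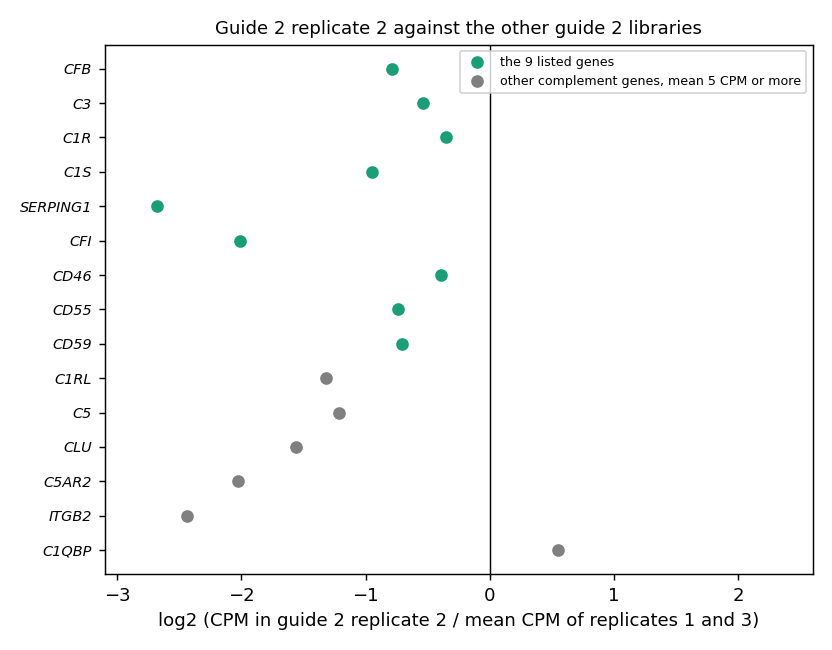
Log2 ratio (x axis) of the CPM in guide 2 replicate 2 to the mean CPM of guide 2 replicates 1 and 3, for the 9 members (green) and 6 other complement genes (grey; y axis). All 9 members lie left of 0, from -0.35 for C1R to -2.68 for SERPING1, and C1QBP alone lies right of it at 0.55.

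Because all comparisons share one estimate of spread, that library also enters the tests that hold no NF1-g2 cells. Without it, an alternative chosen after the values were seen, 18.1% of all genes were called in NF1-g1 against EV and 4 of 9 members: C1R, C1S, CD55 and, at -1.16 (SE 0.364, adjusted p 0.0411), SERPING1. In NF1-g2 against EV (14.5% of all genes), C1R was at -0.66 (adjusted p 0.0315), C1S at -0.72 (0.0394), CD55 at 0.89 (0.00277) and CD59 at 0.31 (0.0428), all called. In NF1-g1/g2 against EV (6.7%), C1R at -0.68 (0.0295) and C1S at -0.88 (0.018) were called. The C1R and C1S reduction against EV was then called in all 3 edited lines and, at -0.75 (0.0107) and -1.14 (0.00248), in Parental (13.9%), where C3, CFI and CD59 were called lower as well.

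Against Parental, the same removal gave 4 calls in NF1-g1 (14.5% of all genes called), all higher: C3 at 0.63 (adjusted p 0.0209), CFI at 1.65 (0.0378), CD46 at 0.35 (0.0153) and CD59 at 0.52 (0.00358). CD59 was called in NF1-g2 at 0.59 (0.00417; 5.96% of all genes), and C3 at 0.62 (0.0494) and CFI at 2.35 (0.0196) in NF1-g1/g2 (2.62%). With the edited lines averaged and set against both controls (18.0%), the calls were CD55 at 0.50 (0.00379) and CD59 at 0.34 (0.00151). No member was called between NF1-g1 and NF1-g2 (0.162%) or between NF1-g1/g2 and NF1-g2 (1.83%), and CD46 was lower in NF1-g1/g2 than in NF1-g1 at -0.33 (0.0309; 4.55%). The test of any difference among the genotypes called 7 of the 9 (23.7%), all but CFB and SERPING1. CFB was the only member with no call in these comparisons with or without that library.

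Some of the other complement genes gained calls as well, beside a larger share of all genes. Of the 15 tested without that library, 3 were called in NF1-g1 against EV (18.1% of all genes) and 3 in NF1-g2 against EV (14.5%). Without NF1-g2 replicate 2, the receptor C5AR2 was higher in NF1-g1 than in EV at 1.22 (SE 0.317, adjusted p 0.0168), as were C5, the component cleaved to start the pore, at 0.83 (SE 0.195, 0.0102), and the fluid-phase inhibitor CLU at 0.79 (SE 0.21, 0.0191). In NF1-g2 against EV, CLU at 1.42 (SE 0.229, 0.00161), CFD at 1.27 (SE 0.395, 0.0473) and C5 at 0.83 (SE 0.214, 0.0209) were called. CLU was also called in NF1-g2 against Parental at 1.19 (SE 0.228, 0.0114), beside 5.96% of all genes. The test of any difference among the genotypes called C5, CLU and C5AR2 (23.7% of all genes). C5 and CLU were called for the mean of the edited lines against both controls, at 0.45 to 0.7 (18.0%). CLU was lower in NF1-g1/g2 than in NF1-g2, at -1.19 (1.83%). None of the 15 listed genes that passed the filter without that library was called in NF1-g1/g2 against EV (6.7% of all genes) or in Parental against EV (13.9%).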

How the data were processed

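Poly(A) RNA libraries (KAPA mRNA HyperPrep) were built from RNeasy-purified RNA, per the labels' protocols. The submitters' processing notes name Trim Galore 0.6.0, STAR 2.7.8a and GRCh38; how reads were counted, on which annotation and with which strand setting is not given in the sources used here. The authors deposited whole-number counts per Ensembl gene and a table of CPM, which equals the deposited counts over the library total to within 4.91e-11. Symbols were found for 60357 of 60721 identifiers, and positions and merged exon lengths come from GENCODE 29.

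Counts were tested with edgeR 4.0.16 in R 4.3.3 (limma 3.58.1 loaded): filterByExpr, TMM scaling, a group-means quasi-likelihood model over all 15 libraries with no replicate block, two-sided tests, and Benjamini-Hochberg adjustment over 17457 genes, called at an adjusted p under 0.05. The SE is the absolute log2 fold change over the square root of F. The procedure was tested on simulated data, drawn for every library from a common mean with changes in NF1-g1 only and no outlying library. That simulation does not show how the procedure behaves with a library like NF1-g2 replicate 2. Alternatives were RLE scaling, no filter, a replicate block, DESeq2 1.42.0, only the compared groups, each library left out, and, chosen after seeing the data, NF1-g2 replicate 2 left out of comparisons that hold no NF1-g2 library.

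The replicate numbers come from the titles of the libraries. Deviations from genotype means correlated at 0.136 to 0.28 in the 3 same-numbered pairs of NF1-g1 and EV, and no other pair of genotypes had all its pairs above 0.1. The mean correlation over all pairs of genotypes was -0.05. The replicate block was nevertheless fitted to all genotypes together, and no fit blocked NF1-g1 and EV alone.

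Log2 CPM for correlations used a prior count of 2. Motifs were searched in the 250 bases before each start in the set of RefSeq promoters used, which lacked C3, C1S and SERPING1. Named are all 9 members, NF1 as a check, every other complement gene that was called or had a mean of 5 CPM or more except a few that are not reported here, and the 3 genes most like each member by Pearson r among genes with a mean log2 CPM of at least 1, of which the top or all 3 are printed. Other names, such as genes with no count, were chosen after their values were seen. The members and lists were chosen with earlier results of these data known. Python 3.11.15 with numpy 2.4.6, pandas 2.3.3 and matplotlib 3.10.9 was used.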

Additional observations from a re-analysis of the deposited data

Results flagged for a closer look

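The level of NF1 differed between edited lines. The log2 fold change of NF1-g1 against NF1-g2 was 0.69 (SE 0.088), with an edgeR adjusted p of 0.0121, and NF1-g1/g2 differed from NF1-g1 by -0.76 (SE 0.0882, adjusted p 0.00411), with no overlap between the libraries in either case. No complement member was called in the same comparisons with all 15 libraries in the fit. Without NF1-g2 replicate 2, CD46 was called lower in NF1-g1/g2 than in NF1-g1. Members were also called in that comparison with only the compared groups in the fit, as counted in the next section. The share of all genes called in that fit is not given here, so these calls have no background beside them.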

How the results depend on the processing

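The counts of members called at an adjusted p under 0.05 moved with the fit. With the replicate block no member was called in any comparison, so that 3 calls in NF1-g1 against EV, 1 in NF1-g2 against EV and 2 in Parental against EV became 0. DESeq2 called 3 in NF1-g2, 2 in NF1-g1/g2 and 4 in Parental, each against EV, where edgeR called 1, 0 and 2; 1 in NF1-g1 and 1 in NF1-g1/g2 against Parental, 1 for the mean of the edited lines and 5 for any difference, where edgeR called 0. With only the compared groups in the fit there were 0 in NF1-g2 against EV, 3 in NF1-g1/g2 against EV and 2 in NF1-g1/g2 against NF1-g1. Without the filter there were 0 in NF1-g2 against EV and 1 for any difference. Leaving out each library gave 0 to 4 calls in NF1-g1 against EV, 0 to 4 in NF1-g2 against EV, 0 to 2 in NF1-g1/g2 against EV, 0 to 4, 0 to 1 and 0 to 2 in the same lines against Parental, 0 to 5 in Parental against EV, 0 to 1 in NF1-g1/g2 against NF1-g1, 0 to 2 for the mean of the edited lines and 0 to 7 for any difference. The highest value of each range came without NF1-g2 replicate 2. The cause was not tested. Over all alternatives, the count of all genes called also moved, in 123 results, and stayed similar in 31, beside 44 and 110 for the members. The share of all genes called is not given for the fits without the filter, with only the compared groups or without most single libraries. Those member counts therefore have no background beside them.

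Of 1214 alternative estimates of the 99 member fold changes, 1086 kept direction and side of the threshold, 38 passed it newly, 41 no longer passed it and 49 reversed. The reversals touched 31 of the 99, none of them called in the full set or in the reversed fit, and in 45 of the 49 the full-set value lay within 0.25 of 0. Against EV, leaving out each library gave ranges that crossed 0 for C3 (-0.19 to 0.07) and CFI (-0.46 to 0.03) in NF1-g1, for CFB (-0.58 to 0.24), SERPING1 (-0.57 to 0.29) and CD59 (-0.01 to 0.31) in NF1-g2, and for CFB (-0.76 to 0.01) and CD59 (-0.01 to 0.15) in NF1-g1/g2. Against Parental they crossed 0 for CFB (-0.07 to 1.89), C1R (-0.17 to 0.21), C1S (-0.06 to 0.18) and SERPING1 (-0.8 to 0.12) in NF1-g1, for C1R (-0.16 to 0.23, and 0.0 with the replicate block), C1S (-0.22 to 0.42), CFI (-0.11 to 1.37) and CD46 (-0.08 to 0.12) in NF1-g2, and for C1R (-0.06 to 0.32), CD46 (-0.05 to 0.06) and CD55 (-0.07 to 0.21) in NF1-g1/g2. CFI in NF1-g2 against Parental had the highest full-set value of these, 0.93, and was -0.11 without NF1-g2 replicate 3. RLE scaling changed no count. All 45 mean CPM values on TMM-scaled library sizes stayed within 1 SD of the deposited ones. Depth limits CFB, CFI and SERPING1, which rest on 54 counts or fewer a library.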
